A study of Mus musculus with 11 samples.

Results

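The chromobox (CBX) genes encode small chromatin proteins that carry a chromodomain, a fold that reads methylated lysines on histone H3. The Polycomb members described here (Cbx2, Cbx6, Cbx7 and Cbx8) also carry a carboxy-terminal Polycomb repressor (PcR) box, through which they join RING1B in Polycomb repressive complex 1 (PRC1), and PRC1 holds a single CBX protein at a time. The chromodomain of CBX7 is known for reading trimethylated lysine 27 of histone H3, the mark placed by PRC2, whereas binding of this mark by CBX6 is not established. The heterochromatin protein 1 (HP1) members Cbx1 (HP1 beta), Cbx3 (HP1 gamma) and Cbx5 (HP1 alpha) carry a chromoshadow domain in place of the PcR box and read methylated lysine 9 of histone H3. In embryonic stem cells (ESCs), CBX7 is known as the main Polycomb CBX protein, and Cbx2 and Cbx8 as genes that PRC1 itself represses.

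The genes were taken by symbol, 7 in all: 4 Polycomb members (Cbx2, Cbx6, Cbx7 and Cbx8) and 3 HP1 members (Cbx1, Cbx3 and Cbx5). An RNA level was found for 6 of the 7, out of 23288 gene symbols in the expression table. The RNA level of Cbx5 was not analysed here, and its peaks were. The comparison asked how the Polycomb and HP1 members stood against each other in level, whether the other members moved when Cbx6 was depleted, and which CBX genes lay under CBX6, CBX7 and RING1B peaks.

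All samples were E14Tg2A cells, a wild-type mouse ESC line, grown without feeders on gelatin in serum and LIF. For RNA-seq the cells had been infected with pLKO lentivirus carrying a control hairpin (shCtl, 2 libraries) or a hairpin against Cbx6 (shCbx6, 2 libraries), and which of the Cbx6 hairpins each library received is not given in the sources used here. For ChIP-seq, anti-HA was used in a line whose endogenous Cbx6 gene had been edited to add a 3×HA tag (CBX6-3×HA, derived from single sorted cells, 2 replicates), and antibodies against CBX7 and RING1B were used in 1 sample each. RNA levels are FPKM, fragments scaled to transcript length and to the mapped fragments of the library, so levels of different genes can be compared per length. The labels do not say that the replicates were separate cultures, so p-values measure only the spread between these libraries, which may be technical.

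The 9 ESC markers examined, Pou5f1 and Sox2 among them, were all read at 1 FPKM or more, and their summed level was 7735 and 8840 in shCtl against 7090 and 6052 FPKM in shCbx6. Dppa5a gave most of that sum (4580 and 5397, then 4544 and 3601 FPKM). Of the rest, Klf4 was read at 91.1 and 96.7, then 36.7 and 28.0 FPKM, Nanog at 321 and 359, then 204 and 192 FPKM, and Utf1 was higher in both shCbx6 libraries. Of 8 fibroblast markers, 1 reached 1 FPKM on average (summed level 2.29 and 2.32 in shCtl against 1.71 and 5.39 FPKM in shCbx6), and Col3a1, Postn, Lum and Dcn were under 0.1 FPKM in every library. The summed trophectoderm markers were 2.18 and 1.64 in shCtl against 2.32 and 11.5 FPKM in shCbx6, so shCbx6 replicate 2 had the highest sum on both lists. Most of each sum there came from 1 gene, Thy1 (3.82 FPKM) among the fibroblast markers and Krt7 (9.02 FPKM) among the trophectoderm markers. The part of these cells in the CBX values was not tested. In bulk RNA, fewer cells of a type and less RNA per cell cannot be told apart.

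Of the 7 CBX genes, 6 have an entry among the RefSeq promoter sequences used here (GRCm38.p6), and each was placed on mm9, the build of the peaks, by an exact and single match. Shown are the 250 bases before the RefSeq start, 5′ to 3′ on the gene's strand, of a gene under peaks of all 4 lists (Cbx8), of the depleted gene and its chromosome neighbour (Cbx6 and Cbx7, under peaks of CBX6 replicate 1 only) and of an HP1 gene without any peak (Cbx1). The RefSeq start of Cbx6 and that of Cbx7 lie inside the GENCODE gene, whose outermost start is the one used for windows and distances of peaks. Capitals mark CpG dinucleotides, which are dense at many Polycomb-bound promoters.
Cbx8: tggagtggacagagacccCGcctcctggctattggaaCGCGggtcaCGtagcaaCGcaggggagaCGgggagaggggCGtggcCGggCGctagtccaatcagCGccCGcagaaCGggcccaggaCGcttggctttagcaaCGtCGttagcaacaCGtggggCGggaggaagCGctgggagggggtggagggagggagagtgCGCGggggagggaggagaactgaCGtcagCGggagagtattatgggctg
Cbx6: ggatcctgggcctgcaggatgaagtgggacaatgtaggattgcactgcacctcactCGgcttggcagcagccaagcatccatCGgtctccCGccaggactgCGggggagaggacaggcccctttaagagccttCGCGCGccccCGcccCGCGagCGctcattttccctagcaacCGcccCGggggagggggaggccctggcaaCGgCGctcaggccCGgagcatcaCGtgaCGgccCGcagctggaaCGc
Cbx7: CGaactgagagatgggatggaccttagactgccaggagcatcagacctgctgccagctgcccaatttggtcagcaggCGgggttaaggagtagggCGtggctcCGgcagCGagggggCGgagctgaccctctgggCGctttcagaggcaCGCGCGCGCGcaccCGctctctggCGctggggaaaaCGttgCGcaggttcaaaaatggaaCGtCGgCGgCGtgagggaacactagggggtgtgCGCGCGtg
Cbx1: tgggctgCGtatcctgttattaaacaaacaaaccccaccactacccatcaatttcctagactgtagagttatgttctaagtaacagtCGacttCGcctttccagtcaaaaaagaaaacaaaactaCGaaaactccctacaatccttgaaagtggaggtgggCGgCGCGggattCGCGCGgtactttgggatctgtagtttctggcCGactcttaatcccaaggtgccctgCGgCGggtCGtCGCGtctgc

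The Cbx8 window (chr11:118902228-118902477, minus strand) held 22 CpG, with an observed over expected ratio of 0.909 and a GC content of 66.4%. The Cbx6 window (chr15:79664764-79665013, minus strand) held 20 CpG with a ratio of 0.692, and the Cbx7 window (chr15:79763077-79763326, minus strand) held 23 with a ratio of 0.917. The Cbx1 window (chr11:96650199-96650448, plus strand) held 16 with a ratio of 1.04. The median over 32841 RefSeq promoter windows of the same length was 6 CpG and a ratio of 0.374, so all 4 windows were CpG rich, whether they lay under a peak or not. The Cbx3 window at chr6:51420365-51420614 held more, 29 CpG, and the upstream window of Cbx5 at chr15:103070284-103070533 held 22. A window of Cbx5 at a start inside the gene (chr15:103045784-103046033) held 7 CpG with a ratio of 0.428, near the median of all windows. Among the letters searched were CACGTG (an E-box, the same on both strands), TGACGTCA (a cAMP response element, the same on both strands) and TATAAA (read on the gene's strand). CACGTG stood in the windows of Cbx8 (at −98, in bases relative to the start), Cbx6 (at −26) and Cbx5 (at −136), and in 6.02% of all windows. TGACGTCA stood only in the Cbx8 window among the CBX windows, at −29, and in 1.55% of all windows. TATAAA stood in none of the CBX windows and in 7.59% of all windows. A match is a description of the letters and not of binding.

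Among the 6 CBX genes with an RNA level, Cbx3, Cbx1 and Cbx7 were the most abundant in shCtl, Cbx6 and Cbx2 stood in the middle, and Cbx8 was close to silent. Cbx3 was read at 181 and 208 FPKM in shCtl, above 98.0% of gene symbols, and Cbx1 at 129.6 and 123.8 FPKM, above 97.0%. Cbx7 was read at 76.2 and 69.9 FPKM, above 94.7% of symbols. Cbx6, the next, stood above 80.3% of symbols at 17.4 and 14.9 FPKM and Cbx2 at 8.90 and 9.52 FPKM. Cbx8 was read at 0.305 and 0.201 FPKM, far below the 1 FPKM that the study takes as expressed. No neighbours in this order overlapped between the 2 shCtl libraries. In shCbx6 the order changed at 1 place: Cbx2 (8.97 and 11.3 FPKM) and Cbx6 (9.53 and 5.40 FPKM) overlapped, with Cbx6 the higher in replicate 1 and Cbx2 the higher in replicate 2. Cbx3 has processed pseudogenes elsewhere in the genome and only uniquely mapped reads were kept, so its level may be affected. The loss of such reads was not measured for any CBX gene.

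**Figure D1:**
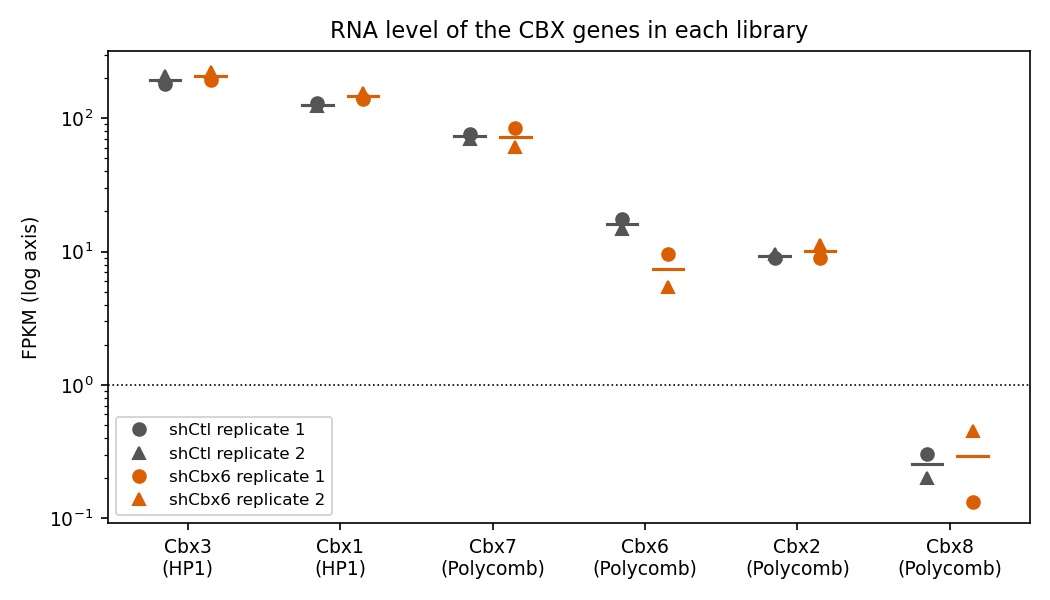
RNA level of each CBX gene in FPKM (log axis) in the 2 shCtl and 2 shCbx6 libraries; symbols are libraries, short bars are group means, and the dotted line is 1 FPKM. Cbx3, Cbx1 and Cbx7 lie above 60 FPKM in every library, Cbx8 lies under 1 FPKM, and Cbx6 is the gene whose shCbx6 points lie below both shCtl points.

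Cbx6, the targeted gene, was lower in both shCbx6 libraries. Its level was 16.1 ± 1.80 FPKM in shCtl and 7.46 ± 2.92 FPKM in shCbx6 (SD, n = 2 libraries each), a ratio of 0.462. The groups did not overlap, and the shCbx6 libraries differed from each other more than the shCtl libraries did. The log2 fold change on the log2(FPKM + 1) scale was −1.06 (standard error 0.263, 95% interval −1.72 to −0.39, limma adjusted p = 0.247, Benjamini-Hochberg over 11592 genes). The difference did not pass the adjusted threshold of 0.05. Without shCbx6 replicate 1 the adjusted p was below it (log2 fold change −1.42, limma adjusted p = 0.0296). That fit has 1 shCbx6 library, assumed to vary like the shCtl libraries. The log2 fold change was −0.70 without shCbx6 replicate 2 (limma adjusted p = 0.375), −0.95 without shCtl replicate 1 (0.833) and −1.17 without shCtl replicate 2 (0.744). By size, 97.1% of the tested genes had a smaller absolute change than Cbx6. A transcript annotated as Npcd joins the first exons of Cbx6 to the neighbouring gene Nptxr, so fragments of those exons may be split between the entries. Npcd was read at 1.56 and 1.11 in shCtl against 1.13 and 1.57 FPKM in shCbx6, with overlapping groups.

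Cbx7, the most abundant Polycomb member, was read at 84.8 and 61.1 FPKM in shCbx6, on either side of its shCtl values. Its means were 73.1 ± 4.48 and 72.9 ± 16.8 FPKM (SD, n = 2 libraries each), a ratio of 0.998. The log2 fold change was −0.02 with a 95% interval of −0.53 to 0.49 (limma adjusted p = 0.982, Benjamini-Hochberg). A change within that interval, in either direction, is compatible with these values. The interval is not adjusted for the 11592 genes tested, so a change outside it could also have gone uncalled. By size, 6.53% of the tested genes had a smaller absolute change.

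Cbx2, which is known to compact nucleosomes in PRC1, had means of 9.21 ± 0.440 FPKM in shCtl and 10.1 ± 1.64 FPKM in shCbx6 (SD, n = 2 libraries each). The groups overlapped, since shCbx6 replicate 1 lay between the shCtl libraries and replicate 2 above them. The log2 fold change was 0.12 (95% interval −0.29 to 0.52, limma adjusted p = 0.836, Benjamini-Hochberg). Cbx8 was read at 0.133 and 0.451 FPKM in shCbx6, on either side of its shCtl values. It was below the mean of 1 FPKM required for testing and was not tested.

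Of the HP1 members, Cbx1 was read at 139 and 156 FPKM in shCbx6, both above its shCtl values. The means were 126.7 ± 4.14 and 147 ± 12.2 FPKM (SD, n = 2 libraries each), a ratio of 1.16. The log2 fold change was 0.21 (95% interval −0.17 to 0.59, limma adjusted p = 0.659, Benjamini-Hochberg). Cbx3 was read at 192 and 222 FPKM in shCbx6, which overlapped its shCtl values. Its log2 fold change was 0.09 (95% interval −0.34 to 0.52, limma adjusted p = 0.888, Benjamini-Hochberg).

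Of the 5 CBX genes tested, 0 passed limma's adjusted threshold in either direction, against 0.0431% of all genes higher (5 genes) and 0.0518% lower (6 genes). Without shCbx6 replicate 1, Cbx6 was the 1 of the 5 that passed, and 267 genes were higher and 131 lower over the table. At an unadjusted limma p under 0.05 stood 1 of the 5, Cbx6, and 1352 of 11592 genes. The study used a fold threshold of 1.5 and does not say how replicates were combined. With that fold taken here between group means, 1 of the 5 was lower (Cbx6), against 6.56% of all genes. By the same rule 0 were higher, against 7.63%. Cbx6 alone among the 5 had both shCbx6 libraries under both shCtl libraries, which was so for 24.4% of all genes, and Cbx1 alone had both above, which was so for 18.9%. An exact permutation test of 2 against 2 libraries, two-sided, cannot give a p below 0.333, so single values were not tested that way.

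**Figure D2:**
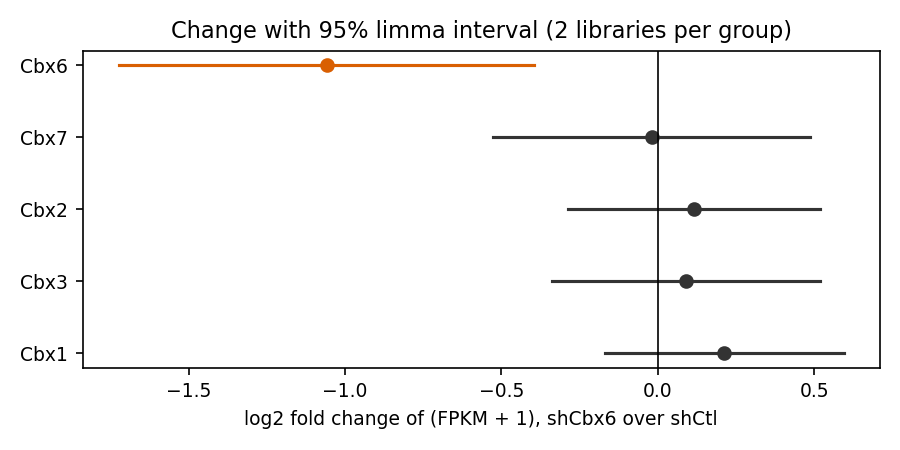
Log2 fold change of (FPKM + 1), shCbx6 over shCtl, for the 5 CBX genes tested (points) with 95% limma intervals (bars; 2 libraries per group; orange marks the targeted gene). The interval of Cbx6 lies below 0, from −1.72 to −0.39, and those of Cbx7, Cbx2, Cbx3 and Cbx1 include 0.

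The groups separated in the makeup of the Polycomb CBX transcripts and not in their sum. Cbx2, Cbx6, Cbx7 and Cbx8 summed to 102.9 and 94.5 in shCtl against 103.5 and 78.2 FPKM in shCbx6, with overlapping groups. Cbx6 made up 16.9 and 15.7% of that sum in shCtl and 9.21 and 6.91% in shCbx6. The groups did not overlap, and the share of Cbx7 stood higher in both shCbx6 libraries (82.0 and 78.1%) than in the shCtl libraries (74.1 and 74.0%). Cbx7 transcripts outnumbered those of Cbx6 per length by 4.38 and 4.70 times in shCtl and by 8.90 and 11.3 times in shCbx6. The share of Cbx2 was 8.65 and 10.1% in shCtl and 8.67 and 14.4% in shCbx6. These shares add up to a whole, so a smaller share of Cbx6 makes the others larger, and none of the sums or shares has a test.

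Cbx1 and Cbx3 together, the HP1 members with an RNA level, summed to 310.9 and 331.3 in shCtl against 330.9 and 377.5 FPKM in shCbx6. The lower shCbx6 library lay within the range of shCtl. The ratio of the HP1 sum to the sum of these Polycomb members was 3.02 and 3.51 in shCtl and 3.20 and 4.83 in shCbx6, so HP1 transcripts were the larger class in every library even without Cbx5. Within the HP1 class, the ratio of Cbx3 to Cbx1 was 1.40 and 1.68 in shCtl and 1.39 and 1.42 in shCbx6.

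Genes that follow the same course as a member over the 4 libraries were named by the distance between mean-centred log2(FPKM + 1) values, among 8073 genes averaging 5 FPKM or more. Nearest to Cbx6 were Ppm1j (distance 0.113), Fam69a (0.124) and H2-M5 (0.131), where the median candidate lay at 1.24. Ppm1j, for example, was read at 27.9 and 22.5 in shCtl against 16.4 and 8.96 FPKM in shCbx6. Nearest to Cbx7 were Fbxl6 (0.0306), Cisd2 (0.0325) and Usf2 (0.0396), against a median of 0.519. With 4 libraries many genes share any given course.

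The complexes that CBX proteins join, and their chromatin partners, were described from lists, none of which held a gene past the limma threshold. From each list its 2 largest changes are named, a choice that favours groups without overlap. Over all genes tested, 24.4% were lower in both shCbx6 libraries than in both shCtl libraries, and 18.9% were higher. Of 16 genes of the PRC1 core, 15 were tested, with 0 higher and 0 lower and a median log2 fold change of −0.05, against −0.01 over all genes tested. The 2 largest changes were those of Phc3, a Polyhomeotic subunit (2.47 and 1.54 in shCtl against 1.51 and 0.981 FPKM in shCbx6), and Scmh1, which binds Polyhomeotic subunits (2.79 and 2.53 FPKM, then 3.22 and 4.44 FPKM). Neither gene had overlapping groups, though the nearest Phc3 values almost met. Rnf2, which encodes RING1B, the ubiquitin ligase of PRC1, was the 1 gene of 15 tested on the list at an unadjusted limma p under 0.05, where 1352 of 11592 stood among all genes. It is named after its values were seen and was read at 55.2 and 58.9 in shCtl against 43.9 and 45.2 FPKM in shCbx6. Its log2 fold change was −0.35 (limma adjusted p = 0.414, Benjamini-Hochberg).

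PRC1.6, a PRC1 form built on PCGF6 of which CBX3 is a known subunit, was represented by 8 genes, all tested, with 0 calls and a median log2 fold change of 0.03. Wdr5, a WD repeat scaffold shared with histone methyltransferases, was read at 149 and 164 in shCtl against 111 and 109.8 FPKM in shCbx6. Hdac2, a histone deacetylase, was read at 127 and 132 in shCtl against 103 and 96.7 FPKM in shCbx6. Both were lower in both shCbx6 libraries without passing (log2 fold change −0.50 and −0.37; limma adjusted p = 0.311 and 0.411, Benjamini-Hochberg).

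PRC2, which methylates lysine 27 of histone H3, had 12 genes tested of 12, with 0 calls and a median log2 fold change of −0.14. Rbbp7, a histone-binding subunit, was read at 139 and 166 in shCtl against 172 and 288 FPKM in shCbx6. E130012A19Rik, which encodes the PRC2 accessory protein EPOP, was read at 121.7 and 110.5 in shCtl against 91.3 and 78.4 FPKM in shCbx6. Their groups did not overlap and neither passed (limma adjusted p = 0.535 and 0.381, Benjamini-Hochberg).

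The list of H3K9 methylation and HP1 partners had 16 genes tested of 16, with 0 calls and a median log2 fold change of 0.03. Its 2 largest changes were those of Ehmt1 and Ehmt2, which encode the G9a-GLP pair of H3K9 methyltransferases. Ehmt1 was read at 18.3 and 19.5 in shCtl against 23.6 and 27.1 FPKM in shCbx6, and Ehmt2 at 36.7 and 42.6 FPKM, then 47.0 and 53.7 FPKM. Both were higher in both shCbx6 libraries without passing (log2 fold change 0.40 and 0.34; limma adjusted p = 0.386 and 0.488, Benjamini-Hochberg). Of 21 other chromodomain genes, all tested, 0 passed, with a median log2 fold change of 0.02. The 2 named there were the remodeller Chd2 (21.0 and 12.4 in shCtl against 15.9 and 8.22 FPKM in shCbx6, overlapping) and the H3K9 methyltransferase Suv39h1 (8.54 and 8.91 FPKM, then 10.6 and 11.3 FPKM, not overlapping).

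The peak lists split the family by locus. The window of a gene ran from 2.5 kb upstream of its start to its transcription end. A gene was counted as holding a peak when at least 1 bp of a peak lay in it. The study used this rule on RefSeq genes. Here it was laid on GENCODE genes by their outermost start, so windows can differ from those of the study. The lists held 21865 peaks for CBX6 replicate 1, 5103 for CBX6 replicate 2, 5081 for CBX7 and 4180 for RING1B, and the depth behind them is unknown here. The score of a peak is the authors' MACS score, which rises with the strength of the evidence for the peak up to a value of 3100 that recurs, and it was compared only within a list.

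CBX6 replicate 2, CBX7 and RING1B each had peaks at 2 of the 7 CBX genes, and in each list these were Cbx2 and Cbx8. Over 21909 genes with coordinates the share with a peak was 16.6% for CBX6 replicate 2, 17.9% for CBX7 and 16.1% for RING1B. Both genes lie close together on chromosome 11, so they are not independent counts. CBX6 replicate 1 had peaks at 6 of the 7, all but Cbx1, against 56.9% of all genes and 81.5% of genes at 50 FPKM or more in shCtl. That share among abundant genes was 4.14% for CBX6 replicate 2, 1.84% for CBX7 and 1.62% for RING1B. The larger CBX6 list thus covered most abundant genes, Cbx3 and Cbx7 among them and Cbx1 not.

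**Figure D3:**
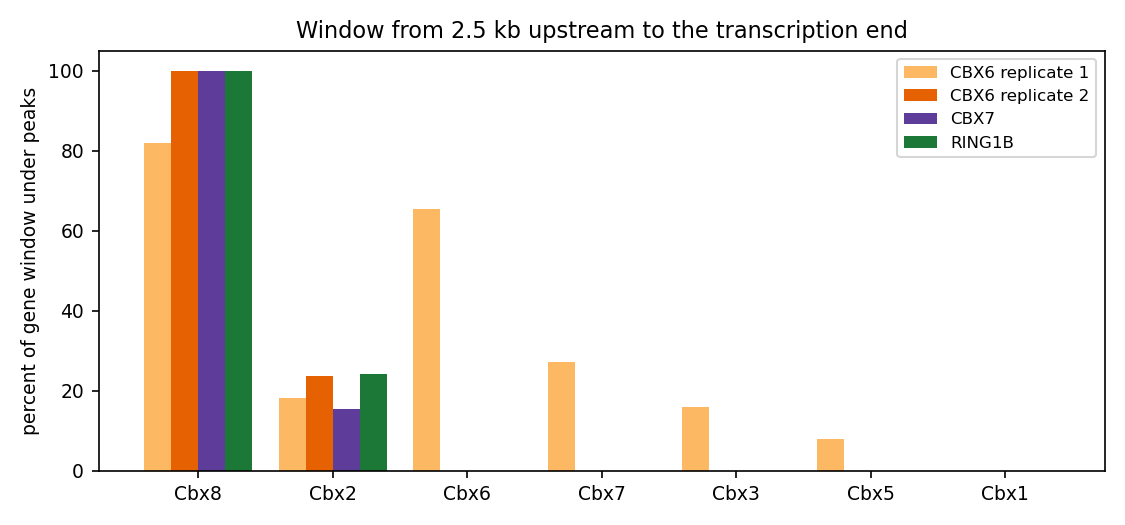
Percent of each CBX gene's window, from 2.5 kb upstream of the start to the transcription end, that lies under peaks of the 4 lists (bars; colours are lists). Cbx8 is covered by 81.9 to 100.0%, Cbx2 by 15.5 to 24.1%, and Cbx6, Cbx7, Cbx3 and Cbx5 by CBX6 replicate 1 alone, with no bar for Cbx1.

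Cbx2 (chr11:118884276-118892584, plus strand) and Cbx8 (chr11:118897619-118902283, minus strand) point toward each other, with 5034 bp between their ends and 18007 bp between their starts. From 5 kb before the Cbx2 start to 20 kb past the Cbx8 start, a stretch of 43008 bp, CBX6 replicate 1 covered 52.2%, CBX6 replicate 2 61.9%, CBX7 65.7% and RING1B 64.8%. Of the bases under CBX6 replicate 2, 96.1% lay under CBX7 and 99.4% under RING1B, and 90.5% and 94.9% of the CBX7 and RING1B bases lay under CBX6 replicate 2. CBX6 replicate 1 covered less of them, 81.6% of the CBX6 replicate 2 bases, 75.4% of CBX7 and 79.8% of RING1B, while 96.9, 94.9 and 99.2% of its own bases lay under those lists in turn. All 4 lists shared 20692 bp.

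Cbx8, close to silent, lay under broad peaks. The CBX7 peak there ran from 118895147 to 118921743 (26597 bp, score 2552), and was the fourth widest of 5081 in its list. The RING1B peak ran from 118895266 to 118911879 (16614 bp, score 3100, width rank 17 of 4180) and the CBX6 replicate 2 peak from 118895408 to 118905725 (10318 bp, score 3100, width rank 65 of 5103). Each covered all of the Cbx8 window, the printed 250 bases included. In CBX6 replicate 1 the start of Cbx8 lay under a shorter peak from 118900916 to 118905490 (score 364, above 97.9% of its list).

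Cbx2, the member of the pair with an RNA level above 1 FPKM, had narrower and weaker peaks, at or just past its start. The share of its window under peaks was 18.1 and 23.7% for CBX6 replicates 1 and 2, 15.5% for CBX7 and 24.1% for RING1B. The CBX7 peak (118882743 to 118884413, score 135) scored above 30.9% of its list, and the RING1B peak (118882761 to 118885360, score 468) above 53.3%. Of 2 CBX6 replicate 2 peaks, that over the start (118882812 to 118884287, score 289) scored above 66.1%, and the other (118884371 to 118885457, score 58.7) above 12.2%. In each list the top peak at Cbx2 scored below that at Cbx8.

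**Figure D4:**
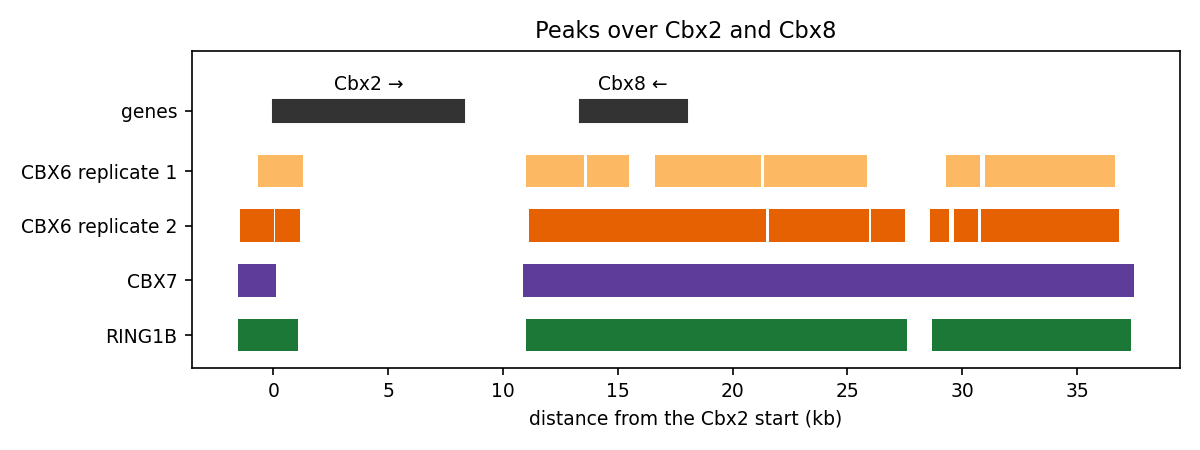
Peaks of the 4 lists (coloured blocks) along Cbx2 and Cbx8, by distance in kb from the Cbx2 start; black blocks are genes with arrows for strand. The blocks of the 4 lists stand over the same stretches, short at the Cbx2 start and long over Cbx8 and upstream of it.

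Among the 2518 genes with a peak in all 4 lists (11.5% of genes), Cbx2 and Cbx8 included, Cbx2 was at the upper end in RNA level. The median of those genes was 0.196 FPKM in shCtl, with 73.0% under 1 FPKM. At or above the level of Cbx2 stood 4.53% of them, and 53.4% stood at or below that of Cbx8. For both Cbx2 and Cbx8 the shCtl and shCbx6 values overlapped.

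Cbx6 and Cbx7 lie on chromosome 15 with 81118 bp between the start of Cbx6 (chr15:79654326-79665118, minus strand) and the transcription end of Cbx7 (chr15:79746237-79801549, minus strand). At Cbx6, CBX6 replicate 1 had 3 peaks that covered 65.4% of the window. That over the promoter (79661932 to 79665301, score 280) took in all 4 annotated coding starts and the printed bases. Another (79653474 to 79656372, score 273) lay over the 3′ end of the gene. In the other 3 lists the nearest peak edge lay 29040 bp (CBX6 replicate 2), 28657 bp (CBX7) and 28973 bp (RING1B) from the Cbx6 start.

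At Cbx7, CBX6 replicate 1 had 11 peaks, which covered 27.1% of the window and 5 of 6 coding starts. The strongest (79761282 to 79764288, score 328, above 97.1% of the list) covered the printed bases. Here the nearest peak edge in the other lists lay 41714 bp (CBX6 replicate 2), 41181 bp (CBX7) and 40743 bp (RING1B) from the start. CBX7 thus had no listed peak at its own gene or at Cbx6, and CBX6 had a peak at its own gene in 1 of its 2 replicates. That replicate, CBX6 replicate 1, had a peak at 78.9% of the 11346 genes taken as expressed. The Cbx6 gene of this line is also the one edited to add the tag. Regulation of Cbx6 by its own protein was not tested.

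**Figure D5:**
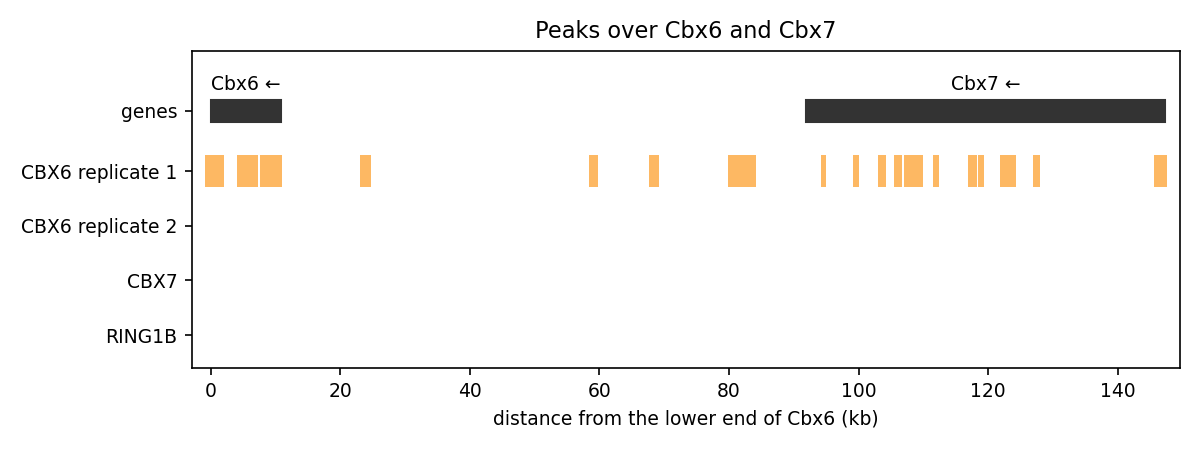
Peaks of the 4 lists (coloured blocks) from Cbx6 to Cbx7, by distance in kb from the lower end of Cbx6; black blocks are genes with arrows for strand. CBX6 replicate 1 has 3 peaks at Cbx6 and 11 at Cbx7, and the rows of CBX6 replicate 2, CBX7 and RING1B are empty.

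The HP1 genes had peaks in CBX6 replicate 1 only, or none. Cbx5 (chr15:103021975-103070247, minus strand) had 3, the strongest over its start (103069677 to 103071714, score 285, above 95.3% of the list). Cbx3 (chr6:51420359-51433703, plus strand) had 2 near its starts (51418680 to 51420192, score 205, and 51420492 to 51421506, score 118). Cbx1 (chr11:96650441-96669954, plus strand) had none, with the nearest edge 7500 bp from its start in CBX6 replicate 1. The closest peak edge of CBX7 lay 52023 bp from the start of Cbx1, 10242 bp from that of Cbx3 and 69343 bp from that of Cbx5.

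For the genes of the same lists, peak counts are read against the shares over all genes and over expressed genes. Over all genes these were 56.9% for CBX6 replicate 1, 16.6% for CBX6 replicate 2, 17.9% for CBX7 and 16.1% for RING1B. Over the 11346 genes taken as expressed they were 78.9, 13.0, 12.8 and 10.8% in that order. Of 16 PRC1 core genes, 14 had a peak in CBX6 replicate 1, 2 in CBX6 replicate 2 (Bmi1 and Yaf2), 7 in CBX7 and 2 in RING1B (Bmi1 and Yaf2 again). The 7 with a CBX7 peak (43.8%) were Bmi1, Pcgf5, Phc1, Phc2, Rybp, Yaf2 and Kdm2b. Bmi1 encodes PCGF4, Yaf2 and Rybp encode paralogous subunits of variant PRC1, and Kdm2b a protein that binds unmethylated CpG. Of 8 PRC1.6 genes, 8 had a peak in CBX6 replicate 1 and 3 in RING1B (37.5%), and CBX6 replicate 2 and CBX7 had 1 each. Of 12 PRC2 genes, 11 had a peak in CBX6 replicate 1 and 1 in each of the others. Of 16 genes for H3K9 methylation and HP1 partners, 9 had a peak in CBX6 replicate 1, 1 in CBX6 replicate 2, and 0 in CBX7 and RING1B. Of 21 other chromodomain genes, the numbers in the same order were 17, 2, 4 and 3.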

How the data were processed

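RNA-seq of 4 libraries and peak lists of 4 ChIP-seq samples were used. The parental anti-HA and IgG samples were not analysed here. Per the labels and the study's methods, the authors mapped RNA reads to mm9 with TopHat, kept uniquely mapped reads and deposited Cufflinks FPKM of RefSeq transcripts. The way several transcripts of 1 gene became 1 value is not given in the sources used here. The deposited peak score is the authors' MACS score, from peaks called per sample on Bowtie alignments with a shift size of 75 bp; versions and the control of each call are not given in the sources used here. The labels name a ChIP kit for HA and CBX7 and another protocol for RING1B.

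The changes were fitted with limma 3.58.1 (R 4.3.3) on log2(FPKM + 1), with a trend and no block, where the mean of either group reached 1 FPKM, with Benjamini-Hochberg adjustment. The fit was tested on simulated data. FPKM sums ran from 678246 to 734862, and no read depth is given. Peaks were placed with Python 3.11.15 (numpy 2.4.6, pandas 2.3.3, matplotlib 3.10.9) on GENCODE genes of mm9, to which 21149 symbols were joined by name and 760 through synonyms.

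The members and gene lists were chosen with earlier results of these data known. Named were the CBX genes, of each list the genes past the threshold or else the 2 largest changes, and the 3 genes nearest in course to Cbx6 and Cbx7. Gene lists covered the PRC1 core, PRC1.6, PRC2, H3K9 methylation and HP1 partners and other chromodomain genes, and marker lists covered ESC, fibroblast, primitive endoderm, neural, mesoderm and trophectoderm. The neural markers summed to 41.3 and 33.8 in shCtl against 33.9 and 24.3 FPKM in shCbx6. Most of that was Tubb3, while Pax6 was read at 1.47 and 0.569, then 5.51 and 1.82 FPKM. The primitive endoderm markers summed to 2.13 and 1.94, then 1.84 and 2.72 FPKM. Those of mesoderm summed to 2.47 and 1.70, then 2.35 and 3.02 FPKM. Most of the mesoderm sum was Eomes (2.12 and 1.42, then 1.63 and 1.92 FPKM). T, low in every library, was read at 0.0984 and 0.0324, then 0.446 and 0.771 FPKM. Alternatives covered the pseudocount, the filter, 2 scalings, the replicate block, each library left out, the window, the score and the overlap. An item is not reported here.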

Additional observations from a re-analysis of the deposited data

How the results depend on the processing

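With 2 libraries per group and no read depth, small changes of the CBX genes could not be resolved. The log2 fold change of Cbx6 kept its direction under every alternative run, from −1.42 to −0.70 when 1 library was left out, and its limma adjusted p was below the threshold without shCbx6 replicate 1 (adjusted p = 0.0296). In each such fit the lone library is assumed to vary like those of the other group. With the replicate number as a block it was −1.06 (limma adjusted p = 0.0425), and the block raised the genes called to 183 higher and 205 lower. The numbers are shared in the labels without a stated pairing. The deviations of same-numbered libraries correlated with r = 0.266 over 11592 genes, with 2 pairs. The block changed no other call of a CBX gene or list. Leaving out 1 library gave ranges of −0.034 to 0.27 for Cbx2, −0.25 to 0.21 for Cbx7, −0.012 to 0.19 for Cbx3 and 0.13 to 0.30 for Cbx1. The sign turned for Cbx2 without shCbx6 replicate 2 (−0.034), for Cbx7 without shCtl replicate 1 (0.04) or shCbx6 replicate 2 (0.21), and for Cbx3 without either of these (−0.0069 and −0.012), none of them called. The genes called ranged from 5 to 267 higher and from 8 to 131 lower with 1 library left out. The highest counts came without shCbx6 replicate 1, and 27 were higher without shCbx6 replicate 2, 10 higher and 12 lower without shCtl replicate 1, and 14 lower without shCtl replicate 2. A pseudocount of 0.1 gave 11 higher, and no filter gave 1 higher and 1 lower. The cause of these shifts was not tested. The difference in the Polycomb sum ran from −20.5 to 4.79 FPKM and that in the HP1 sum from 9.83 to 56.4 FPKM with 1 library left out. Requiring a peak to lie by 50% in the window left 1 CBX gene, Cbx2, with a CBX7 or RING1B peak, in place of 2, and dropped Cbx8, whose peaks reach past its window. Both other scalings moved the median change of all genes by less than 0.1 on the log2 scale.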
